A study of Mus musculus with 12 samples.

Results

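Fatty acid desaturases and elongases were described here in liver RNA by 9 genes, Fads1, Fads2, Fads3, Scd2, Elovl1, Elovl2, Elovl3, Elovl5 and Elovl7. These genes were chosen by name, and their identifiers were matched to symbols through the GENCODE annotation of GRCm38. All 9 were found among the 52636 genes in the count tables. The libraries came from the left lateral liver lobe of 12 male C57Bl/6J mice at 16 weeks of age, with 1 library per mouse. The 6 VDD-F1 mice were born to dams fed a diet without vitamin D, with added calcium gluconate, from before mating to delivery, and the 6 VDS-F1 mice to dams fed a matched diet that contained vitamin D. After delivery all dams received the vitamin D sufficient diet, and so did all offspring after weaning, so that the groups differed in the diet of the dam and in her calcium supplement.

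Long-chain fatty acids are lengthened in the endoplasmic reticulum by a cycle whose condensing enzymes are the Elovl proteins, and double bonds are added by the Fads and Scd desaturases. Fads2, Elovl5, Fads1 and Elovl2 act in turn on the essential fatty acids of the diet to make arachidonic, eicosapentaenoic and docosahexaenoic acid, which the liver supplies to other tissues. The Scd enzymes make monounsaturated fatty acids, and Elovl1, Elovl3 and Elovl7 mainly lengthen saturated and monounsaturated chains. Fads3 is known for adding a double bond to sphingoid bases.

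The libraries held 25897868 to 36403413 fragments, of which 14275793 to 20815066 were counted on genes. VDS6 had 11.1% of its fragments outside genes, and in VDD2 several genes described here stood apart, so some of the values are also given without both mice. Albumin was at 55809 to 79284 CPM (counts scaled to library size with edgeR's TMM factors), and all 6 hepatocyte markers had counts in every library. The Y-linked gene Ddx3y was at 41.1 to 62.1 CPM in every mouse. The study's supplement records a liver weight for 7 of the mice (VDS3 to VDS6, VDD4 to VDD6), but not for the remaining 5. What this split stands for is not given in the sources used here, but expression differed along it, so each comparison was also made by set. The sources do not say which mice shared a litter, so p-values measure the spread between these 12 mice.

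The Fads genes lie in a row on chromosome 19, as Fads3 (ENSMUSG00000024664.4, chr19:10041569-10060110, plus strand), Fads2 (ENSMUSG00000024665.7, chr19:10062765-10101746, minus strand) and Fads1 (ENSMUSG00000010663.4, chr19:10182888-10196877, plus strand). Scd2 (ENSMUSG00000025203.5, chr19:44293674-44306864, plus strand) and Elovl3 (ENSMUSG00000038754.4, chr19:46131897-46135694, plus strand) are on the same chromosome, and Elovl3 overlaps Pitx3 on the other strand. Elovl1 (ENSMUSG00000006390.15) spans chr4:118428093-118432953 on the plus strand and overlaps Cdc20 on the other strand. Elovl2 (ENSMUSG00000021364.16) spans chr13:41182381-41220405 on the minus strand. Elovl5 (ENSMUSG00000032349.13) spans chr9:77917364-77984519, and Elovl7 (ENSMUSG00000021696.9) spans chr13:108214404-108285683, both on the plus strand. All positions are in GRCm38. Fads1 overlaps Mir6993 and Scd2 overlaps Mir5114 on the same strand. Fragments that map to several places, such as those shared by Scd1 and Scd2, were not counted by the authors' aligner.

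Promoter sequence is shown for Fads2, Elovl2 and Elovl5, since these genes differed together between the sets of mice described below. RefSeq promoters in GRCm38.p6, from 250 bases before to 50 bases after the start of the transcript, were matched for 6 of the 9 genes, and none for Fads1, Scd2 and Elovl3. The window of Fads2 is chr19:10101454-10101753 on the minus strand, that of the Elovl2 start farther upstream is chr13:41220354-41220653 on the minus strand, and that of Elovl5 is chr9:77917115-77917414 on the plus strand. Capitals mark 3 motifs read on either strand, the GC box with the letters GGGCGG, the CCAAT box, and the E-box with the letters CACGTG.
Fads2: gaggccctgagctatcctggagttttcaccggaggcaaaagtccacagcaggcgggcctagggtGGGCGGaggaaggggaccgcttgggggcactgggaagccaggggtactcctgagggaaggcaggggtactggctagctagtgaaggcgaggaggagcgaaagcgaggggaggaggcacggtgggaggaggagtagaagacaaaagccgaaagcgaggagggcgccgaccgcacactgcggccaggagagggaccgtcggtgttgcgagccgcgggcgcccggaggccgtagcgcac
Elovl2: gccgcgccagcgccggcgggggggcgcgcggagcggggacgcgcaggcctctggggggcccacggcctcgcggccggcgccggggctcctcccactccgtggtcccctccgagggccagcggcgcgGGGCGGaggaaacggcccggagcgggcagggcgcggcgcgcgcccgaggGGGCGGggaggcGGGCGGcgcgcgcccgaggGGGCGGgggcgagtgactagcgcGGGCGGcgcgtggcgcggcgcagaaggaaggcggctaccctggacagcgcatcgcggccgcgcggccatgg
Elovl5: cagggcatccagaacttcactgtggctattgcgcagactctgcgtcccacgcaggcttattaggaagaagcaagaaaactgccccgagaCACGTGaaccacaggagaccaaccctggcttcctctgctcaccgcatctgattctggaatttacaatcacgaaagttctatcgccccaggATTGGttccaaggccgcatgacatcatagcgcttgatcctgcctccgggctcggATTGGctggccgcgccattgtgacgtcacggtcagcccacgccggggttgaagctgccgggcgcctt
The GC box occurred 1 time in the Fads2 window, 5 times in that of Elovl2 and not in that of Elovl5, and 35.7% of all 32851 promoter windows held it. Elovl5 had 2 CCAAT boxes (37.4% of all windows held at least 1) and 1 E-box (7.15% of all windows). The letters TCACNCCAC of a sterol regulatory element were not in any of the windows of the 6 genes and were in 1.24% of all windows. The motifs did not overlap in these 3 windows, and none of the motifs was in all 3.

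Per kilobase of exon, Fads2, Elovl5 and Elovl2 had the highest mean levels of the 9 genes over the 12 mice, followed by Fads1 and Elovl3. The mean level was 241 ± 114 CPM per kilobase for Fads2, 237 ± 105 for Elovl5, 196 ± 49.2 for Elovl2 and 166 ± 52.6 for Fads1 (SD, n = 12 mice). Elovl3 followed with 143 ± 57.4 and Elovl1 with 15.1 ± 1.89 CPM per kilobase (SD, n = 12). The order was not resolved among the upper genes, since Fads2 was above Elovl5 in 6 of 12 libraries, Elovl5 above Elovl2 in 7, and Fads1 above Elovl3 in 6. Fads1 was above Elovl3 in 4 of the 5 mice without a recorded liver weight and in 2 of the 7 mice with one, where the means were 132 ± 23.7 for Fads1 and 153 ± 49.7 CPM per kilobase for Elovl3 (SD, n = 7). The remaining steps were clearer: Elovl2 was above Fads1 in 11 of 12 libraries and Elovl3 above Elovl1 in 11 (all but VDD2). Scd2 (3.82 ± 3.37 CPM per kilobase), Fads3 (0.687 ± 0.230) and Elovl7 (0.158 ± 0.196) came last (SD, n = 12 each), and each step from Elovl1 down to Elovl7 held in 12 of 12 libraries. Scd1, the stearoyl-CoA desaturase that dominates in liver, was at 4339 ± 2219 CPM per kilobase (SD, n = 12). Of the summed level of Scd1 and Scd2 per kilobase, Scd2 made up 0.0144% to 0.259%.

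Between the diets, 8 of the 9 genes could be tested, because Elovl7 fell under the required mean count of 12. None was a differentially expressed gene (DEG, adjusted p under 0.05 with a log2 fold change beyond 1 in either direction in edgeR's quasi-likelihood test over 12453 genes), where 0.0402% of all genes tested were DEGs. At an unadjusted p under 0.05, 4 of the 8 were higher in VDD-F1 mice (Fads1, Fads2, Elovl2 and Scd2), against 9.55% of all genes tested, and none was lower, against 6.29% of all genes. With the replicate number as a block, although these numbers did not pair the mice, Elovl5 was also among them. That made 5 of the 8, against 8.26% of all genes tested. With DESeq2's Wald test Scd2 was a DEG, as were 1.75% of all genes in that direction. The median log2 fold change was 0.52 over the 8 genes and 0.0041 over all genes tested.

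**Figure D1:**
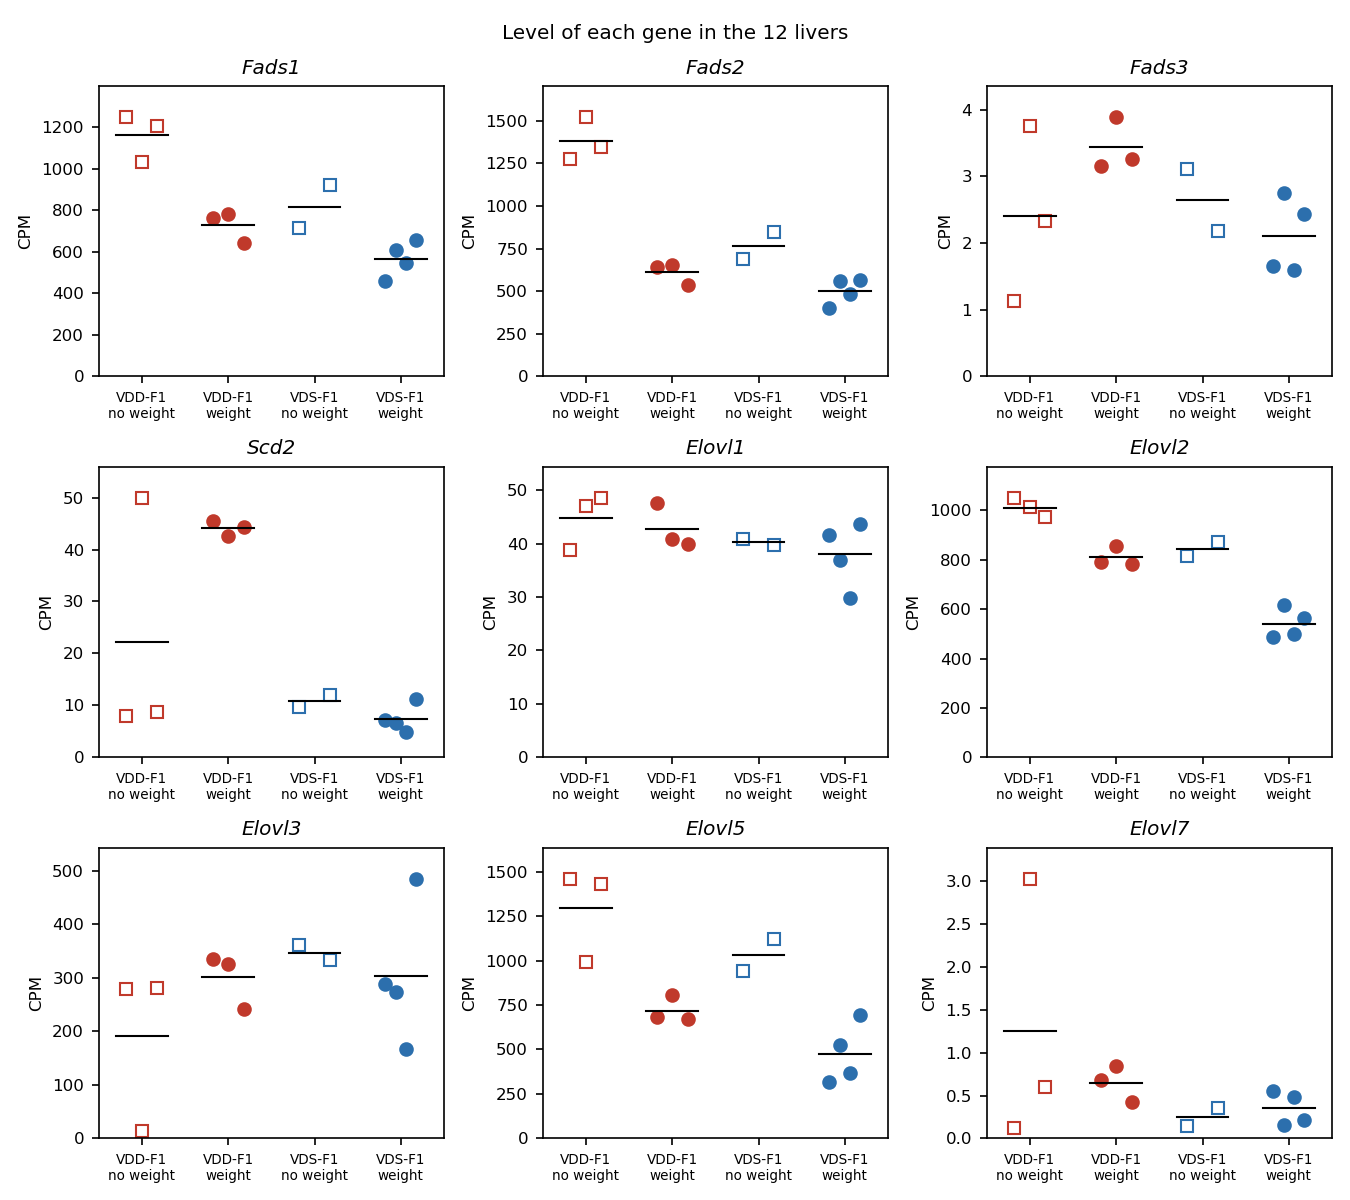
Level of each of the 9 genes in each liver, in CPM on a linear axis from 0. Squares are mice without and filled circles mice with a recorded liver weight, red is VDD-F1 (3 and 3 mice) and blue VDS-F1 (2 and 4 mice), and bars are means. Fads1, Fads2, Elovl2 and Elovl5 are lower in the mice with a recorded weight in both diet groups, and Scd2 is between 42.7 and 49.9 CPM in 4 VDD-F1 mice and at most 11.9 CPM in the other 8 mice.

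Among the desaturases, Scd2 showed the largest fold change between the diets. It was at 7.89 CPM in VDD1, 49.9 in VDD2, 8.74 in VDD3, 45.4 in VDD4, 42.7 in VDD5 and 44.2 in VDD6. In the VDS-F1 mice it was at 9.63, 11.9, 7.15, 6.61, 4.79 and 11.2 CPM in VDS1 to VDS6. The VDD-F1 mice thus fell into 4 mice above all VDS-F1 mice and 2 mice, VDD1 and VDD3, within the VDS-F1 range. The means of VDD-F1 and VDS-F1 mice were 33.1 ± 19.4 and 8.55 ± 2.81 CPM (SD, n = 6 per group), and the log2 fold change was 1.96 ± 0.44 (standard error, SE) with an unadjusted p of 0.000477 and an adjusted p of 0.0855 in edgeR's quasi-likelihood test. DESeq2 gave Scd2 an adjusted p of 0.00653, voom with sample quality weights 0.0263, and edgeR without a filter on low counts 0.0312. Without VDD1 or VDD3, the 2 VDD-F1 mice with low Scd2, the adjusted p of edgeR was 0.00981 and 0.0308. With any other mouse left out it was between 0.0802 and 0.208, with a robust fit 0.112 and without VDD2 and VDS6 0.185, and the log2 fold change in these fits was between 1.80 and 2.08.

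Fads1 and Fads2 were higher in VDD-F1 mice on average, with overlapping groups. Fads1, which adds the last double bond of arachidonic acid, was at 1248, 1031, 1205, 760, 783 and 643 CPM in VDD1 to VDD6 and at 713, 919, 459, 608, 544 and 657 in VDS1 to VDS6. The lowest VDD-F1 mouse, VDD6, lay below 3 of the 6 VDS-F1 mice. The log2 fold change of Fads1 was 0.54 ± 0.19 (SE, unadjusted p = 0.0135, adjusted p = 0.197 in edgeR's quasi-likelihood test). Fads2, which starts the pathway, was at 1274, 1521, 1348, 642, 653 and 536 CPM in VDD1 to VDD6, and at 690, 844, 402, 562, 481 and 568 in VDS1 to VDS6. VDD1 to VDD3 were above every VDS-F1 mouse, and VDD4 to VDD6 were not. Its log2 fold change was 0.75 ± 0.27 (SE, unadjusted p = 0.0136, adjusted p = 0.197 in the same edgeR test). With the set of mice as a covariate it was 0.51 ± 0.13 (SE). Without VDD2 and VDS6 the unadjusted p of Fads2 was 0.0614.

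Fads3 had few counts, between 18 and 74 fragments per library. It was at 1.14, 3.76, 2.33, 3.16, 3.89 and 3.26 CPM in VDD1 to VDD6 and at 3.11, 2.18, 1.65, 2.76, 1.60 and 2.43 in VDS1 to VDS6, with overlapping groups. The log2 fold change was 0.35 ± 0.28 (SE, adjusted p = 0.579 in edgeR's test). In 11 of 12 libraries more fragments were counted on the strand opposite to Fads3 than on its own, 44 to 430 per library, which was 48.9% to 88.9% of the fragments on either strand. On the other 8 genes the opposite strand never held more than 1.39%. Fads2 lies on that opposite strand and ends 2654 bases from the end of Fads3, and the opposite-strand counts on Fads3 amounted to 0.471% to 1.48% of the Fads2 count in the same library. Where they arose was not tested. Values of Fads3 from counts that ignore the strand therefore hold fragments from both strands.

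**Figure D2:**
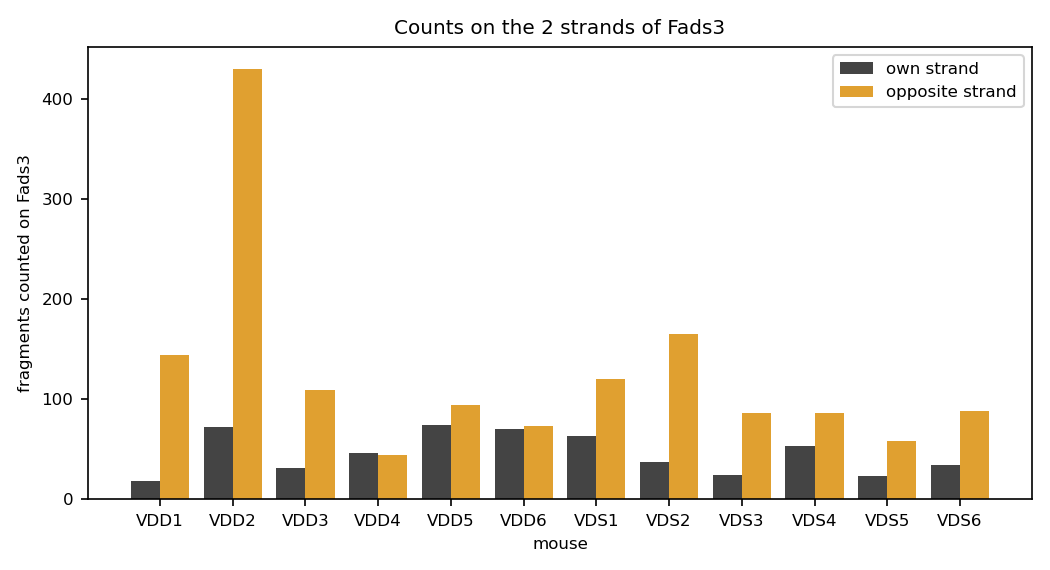
Fragments counted on the own strand (grey bars) and on the opposite strand (orange bars) of Fads3 in each of the 12 libraries, as raw counts from 0. The opposite-strand bar is the taller one in all libraries except VDD4 (46 against 44 fragments) and reaches 430 fragments in VDD2.

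Among the elongases, Elovl2, which makes the longest precursors of docosahexaenoic acid, had the smallest p-value between the diets. It was at 1050, 1012, 973, 793, 856 and 783 CPM in VDD1 to VDD6 and at 817, 872, 487, 617, 499 and 563 in VDS1 to VDS6. Over all mice the groups overlapped, since VDS1 and VDS2 lay within the VDD-F1 range. Within the mice with a recorded liver weight, and within those without, every VDD-F1 mouse was above every VDS-F1 mouse. That held for 1.51% of all genes tested, and among the 8 genes for Elovl2. Over all 12 mice none of the 8 was higher in every VDD-F1 mouse, and 0.61% of all genes tested were. The log2 fold change of Elovl2 was 0.50 ± 0.16 (SE, unadjusted p = 0.00568, adjusted p = 0.137 in edgeR's quasi-likelihood test). DESeq2 gave an adjusted p of 0.0411, with the fold change below the threshold for a DEG.

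Elovl5, which lengthens the products of Fads2, was at 1459, 994, 1431, 680, 804 and 669 CPM in VDD1 to VDD6 and at 941, 1122, 316, 524, 368 and 695 in VDS1 to VDS6. The groups overlapped, and the log2 fold change was 0.61 ± 0.31 (SE, unadjusted p = 0.0705, adjusted p = 0.362 in edgeR's test). Elovl1, which acts on saturated very long chains, varied least relative to its mean, from 29.8 to 48.5 CPM over all mice, with a log2 fold change of 0.17 ± 0.10 (SE, adjusted p = 0.414 in edgeR's test).

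Elovl3, known for its sex-biased and rhythmic expression in liver, was at 280, 13.8, 281, 335, 326 and 241 CPM in VDD1 to VDD6 and at 361, 332, 289, 274, 167 and 484 in VDS1 to VDS6. VDD2 lay far below the other 11 mice. The log2 fold change was -0.37 ± 0.48 (SE, adjusted p = 0.754 in edgeR's test), and without VDD2 and VDS6 it was 0.039. Hsd3b5 and Cyp7b1 were the only 2 of the 10 listed male-biased genes examined mouse by mouse. In VDD2 they were also low, at 2.56 and 13.3 CPM against 38.7 to 112 and 46.6 to 147 CPM in the other VDD-F1 mice. Of the 10 male-biased genes listed, 3 were lower in VDD-F1 mice at an unadjusted p under 0.05 (Cyp2d9, Hsd3b5 and Cyp7b1), against 6.29% of all genes tested, none passed the adjustment, and their part in the level of Elovl3 was not tested. Between the sets, Selenbp2 and Ugt2b38 were higher and Mup20 lower with a recorded weight at that threshold (log2 fold changes 1.14, 1.31 and -0.77), against 5.87% higher and 7.99% lower of all genes tested.

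Elovl7, an elongase of saturated chains, was counted with 2, 58, 8, 10, 16 and 9 fragments in VDD1 to VDD6 and with 3, 6, 8, 3, 7 and 3 in VDS1 to VDS6. VDD2 stood above all other mice, and the other 11 had at most 16 fragments. Without a filter on low counts its log2 fold change was 1.59 ± 0.63 (SE, unadjusted p = 0.0197, adjusted p = 0.313 in edgeR's test).

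**Figure D3:**
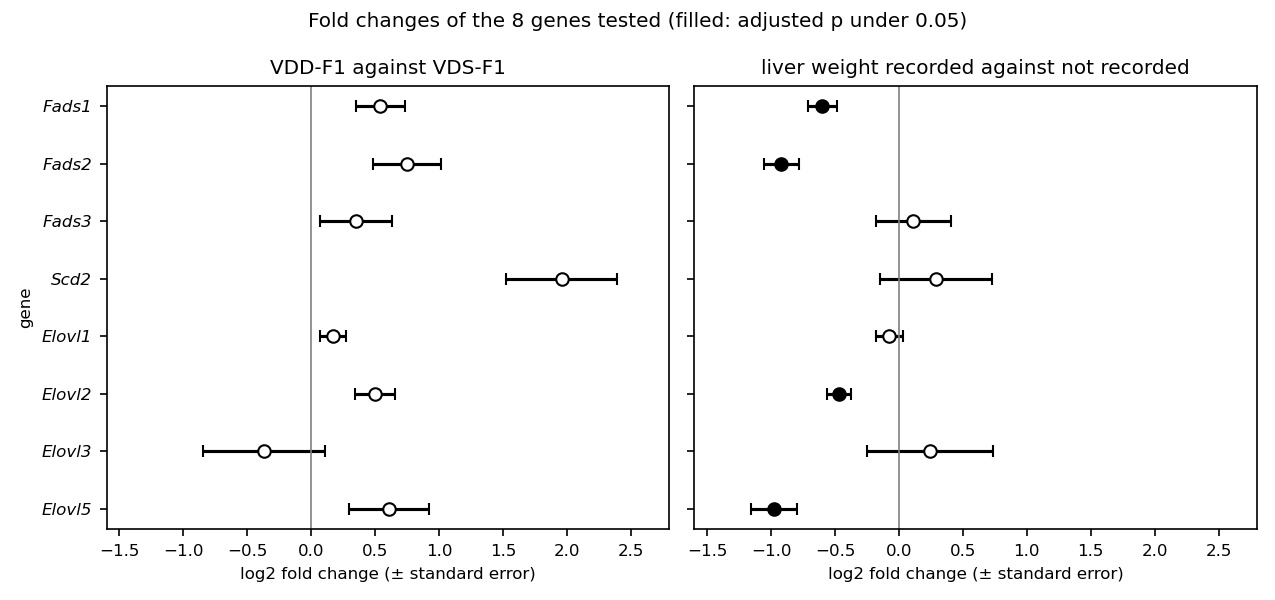
Log2 fold changes with standard errors of the 8 genes tested, from edgeR's quasi-likelihood fits, for VDD-F1 against VDS-F1 mice (left) and for mice with against mice without a recorded liver weight, adjusted for diet (right). Filled points had an adjusted p under 0.05: none on the left, and on the right Fads1, Fads2, Elovl2 and Elovl5, all below 0.

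Fads1, Fads2, Elovl2 and Elovl5, the 4 enzymes that make long polyunsaturated fatty acids, were lower in the mice with a recorded liver weight than in those without. With diet as a covariate, these 4 of the 8 genes had an adjusted p under 0.05 in edgeR's quasi-likelihood test, against 1.56% of all genes tested in that direction, and the median log2 fold change was -0.27 over the 8 genes and -0.011 over all genes. Fads2 was at 1136 ± 352 CPM in the 5 mice without and 549 ± 87.8 in the 7 mice with a recorded weight (SD), a log2 fold change of -0.92 ± 0.13 (SE, adjusted p = 0.00264 in edgeR's test). Elovl5 was at 1189 ± 242 and 579 ± 182 CPM (SD, n = 5 and 7), a log2 fold change of -0.98 ± 0.18 (SE, adjusted p = 0.0115 in edgeR's test). Fads1 was at 1023 ± 218 and 636 ± 114 CPM and Elovl2 at 945 ± 97.5 and 657 ± 152 (SD, n = 5 and 7). Their log2 fold changes were -0.60 ± 0.11 (SE) for Fads1 and -0.47 ± 0.09 (SE) for Elovl2, with adjusted p-values of 0.0131 and 0.0180 in edgeR's test. Without VDS1 the adjusted p of Elovl2 was 0.0523, and without VDS2 it was 0.0673 for Elovl2 and 0.0555 for Fads1, with log2 fold changes between -0.42 and -0.56 in these fits.

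Each of these 4 genes was lower in every mouse with a recorded weight than in every mouse without one, within the VDD-F1 mice and within the VDS-F1 mice. Of all genes tested, 2.06% were. Fads2 ranged from 1274 to 1521 CPM in the 3 VDD-F1 mice without and from 536 to 653 in the 3 with a recorded weight, and its log2 fold changes were -1.18 among VDD-F1 and -0.61 among VDS-F1 mice. For Elovl5 these values were -0.85 and -1.11, for Fads1 -0.67 and -0.52, and for Elovl2 -0.32 and -0.64. In the 6 mice of a single diet, the adjusted p of edgeR was under 0.05 for Fads2 in VDD-F1 (0.0332) and for Elovl2 in VDS-F1 mice (0.0251), against 0.145% and 0.859% of all genes tested and lower with a recorded weight. Scd2, Fads3, Elovl1 and Elovl3 had log2 fold changes between 0.29 and -0.075 and adjusted p-values between 0.823 and 0.918 in edgeR's test between the sets. For Fads3 the value was 0.11 on its own strand and -0.86 (adjusted p = 0.107) with counts that ignore the strand.

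The rhythmic gene Nr1d1, a repressor of the clock, had the opposite order of the sets in the 2 diets. It was at 145, 132 and 170 CPM in VDD1 to VDD3 and at 51.1 to 57.2 in VDD4 to VDD6. In the VDS-F1 mice it was at 49.8 and 57.7 in VDS1 and VDS2 and at 200 to 227 in VDS3 to VDS5. VDS6, at 58.1 CPM, was close to VDS2. Of 14 clock genes listed, 2 were lower with a recorded weight at an unadjusted p under 0.05 (Per2 and Cry2), against 7.99% of all genes tested. Between the diets 3 were lower in VDD-F1 mice (Per2, Cry2 and Hlf), against 6.29% of all genes tested, and none passed the adjustment in either comparison. The part of the clock in the levels of the 4 genes was not tested. The time of day of dissection is not given in the sources used here.

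With the set as a covariate, the log2 fold change between the diets was 0.51 ± 0.13 for Fads2 and 0.42 ± 0.11 for Fads1 (SE). It was 0.45 ± 0.09 for Elovl2, 0.48 ± 0.18 for Elovl5 and 1.94 ± 0.44 for Scd2 (SE). These 5 genes had an unadjusted p under 0.05 in edgeR's test (0.000274 to 0.0170), as did 2111 of the 12453 genes tested in either direction. Their adjusted p-values were 0.0533 to 0.189. The diet effect was also taken within each set. In the 7 mice with a recorded weight, Scd2 was at 42.7 to 45.4 CPM in VDD-F1 and 4.79 to 11.2 in VDS-F1 mice, a log2 fold change of 2.57 ± 0.21 (SE, adjusted p = 1.91e-05 in edgeR's test). Elovl2 had a log2 fold change of 0.58 ± 0.10 there (SE, adjusted p = 0.00305 in edgeR's test), and Fads2 of 0.28 ± 0.12 (SE, adjusted p = 0.187). These were 2 of the 8 genes past an adjusted p of 0.05 and higher in VDD-F1 mice, against 5.85% of all genes tested. In the 5 mice without a recorded weight none of the 8 passed, and no gene at all did, while 2 of the 8 and 3.79% of all genes had an unadjusted p under 0.05 in edgeR's test. The log2 fold change was 1.06 ± 0.81 for Scd2 (SE), 0.85 ± 0.20 for Fads2 (SE, unadjusted p = 0.00451), 0.51 ± 0.21 for Fads1 (SE, unadjusted p = 0.0453) and 0.26 ± 0.18 for Elovl2 (SE, unadjusted p = 0.182), with an adjusted p of 0.999 for each in edgeR's test.

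None of the 8 genes had a diet effect that differed between the sets at an adjusted p under 0.05, and 0.0883% of all genes tested did. At an unadjusted p under 0.05 it was 1 of the 8, Fads2, against 9.01% of all genes tested. DESeq2 also gave none at an adjusted p under 0.05, and voom gave 1, Scd2. Over all genes tested DESeq2 gave 138 and voom 62. The difference of the log2 fold changes (recorded minus not recorded) was 1.51 ± 0.79 for Scd2 (SE, unadjusted p = 0.0788, adjusted p = 0.612 in edgeR's test). It was -0.57 ± 0.22 for Fads2 (SE, unadjusted p = 0.0243, adjusted p = 0.473 in edgeR's test). The unadjusted p of Fads2 was 0.0594 with voom, and in edgeR's test 0.0619 without VDD6 and 0.0609 without VDD2 and VDS6. Without VDS1 the difference for Fads2 was -0.43. The value of Scd2 rested on VDD2: without VDD2 the difference was 2.94 ± 0.35 (SE, adjusted p = 0.000432 in edgeR's test) and without VDD2 and VDS6 it was 3.20 ± 0.25 (SE, adjusted p = 2.61e-05), since VDD1 and VDD3 then stood alone for the VDD-F1 mice without a recorded weight.

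The 4 VDD-F1 mice with high Scd2 were also those with the highest levels of lipid-associated macrophage markers. The summed level of the 6 markers (Gpnmb, Trem2, Cd9, Spp1, Mmp12 and Cd63) was 193 CPM in VDD2, 89.6 in VDD4, 86.9 in VDD5 and 76.0 in VDD6, against 32.8 in VDD1, 49.9 in VDD3 and 24.9 to 58.7 in the VDS-F1 mice. Each of the 6 had counts in every library and a higher mean in VDD-F1 mice at an unadjusted p under 0.05, and none passed the adjustment in edgeR's test. Gpnmb, a lysosomal membrane protein of lipid-laden macrophages, was at 7.41 to 45.4 CPM in these 4 mice and at 0.0687 to 1.43 in the other 8. All 6 markers of cycling cells were also higher in VDD-F1 mice at an unadjusted p under 0.05, with summed levels of 74.6 CPM in VDD2, 15.8 to 21.8 in VDD4 to VDD6, 11.6 in VDD1 and 7.31 in VDD3, and 5.35 to 8.17 in VDS-F1 mice. The female-biased gene Cyp2a4 was at 25.2 to 40.4 CPM in the same 4 mice and at 0 to 0.416 in the others, and shares reads with a close relative. It was 1 of 2 female-biased genes with enough counts to test, and the other, Cyp17a1, had a log2 fold change of -2.06 ± 0.34 SE between the sets (adjusted p = 0.00629 in edgeR's test). Between the diets the log2 fold change of Cyp17a1 was 1.10 ± 0.63 (SE, unadjusted p = 0.104 in edgeR's test). The summed level of the 6 dendritic cell markers was also higher in these 4 mice than in the other 8 (6.34 to 18.5 CPM against at most 3.54). So was that of the 6 cholangiocyte markers (58.2 to 116 CPM against at most 51.5). Spp1 counts toward both the cholangiocyte sum and the lipid-associated macrophage sum, so these 2 sums are not independent. Of the dendritic cell markers, Itgax alone had enough counts to test. The part of any of these lists and genes in the level of Scd2 was not tested. In bulk liver RNA more cells of a type and more RNA per cell cannot be told apart.

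**Figure D4:**
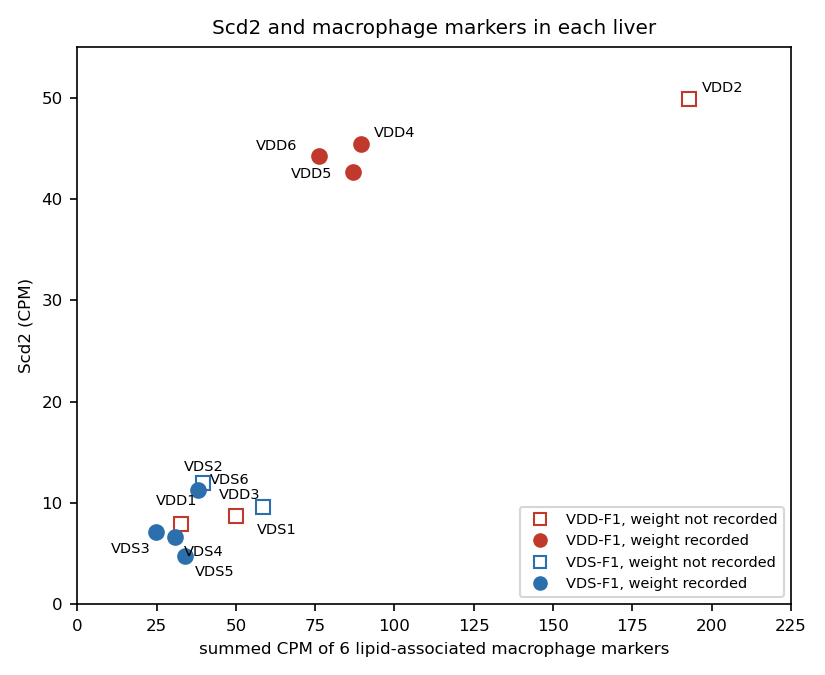
Scd2 (CPM, vertical axis) against the summed CPM of 6 lipid-associated macrophage markers (horizontal axis), with 1 point per mouse, coloured by diet and shaped by whether a liver weight is recorded. VDD2, VDD4, VDD5 and VDD6 lie at 76.0 to 193 CPM of markers and 42.7 to 49.9 CPM of Scd2, and the other 8 mice at up to 58.7 and 11.9 CPM.

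Markers of other cell types were counted in the same way, where 9.55% of all genes tested were higher and 6.29% lower in VDD-F1 mice at this threshold. Of the 6 Kupffer cell and macrophage markers, 2 were lower in VDD-F1 mice at an unadjusted p under 0.05, with summed levels of 122 to 310 CPM, against 170 to 321 in VDS-F1 mice. Of 6 stellate cell markers 2 were higher, of 6 endothelial markers 1 was higher and 2 were lower, of 6 hepatocyte markers 1 was lower, and of 5 cholangiocyte markers tested 3 were higher, among them Spp1, which is also in the macrophage list. The adipocyte marker Adipoq, the hormone that defines fat cells, was at 0 in 11 libraries and at 0.0687 CPM in the remaining one. The only dendritic cell marker tested was higher, and of 3 lymphocyte markers tested 1 was lower. Of 2 adipocyte markers tested 1 was higher. Between the sets, 2 of the 6 Kupffer cell and macrophage markers were lower with a recorded weight at an unadjusted p under 0.05 (Cd5l and Timd4), and the median log2 fold change of the 6 was -0.42. Their summed level was 168 to 321 CPM in the mice without and 122 to 256 in the mice with a recorded weight. Of the 6 endothelial markers 2 were higher with a recorded weight (Kdr and Pecam1, log2 fold changes 0.35 and 0.27), with summed levels of 187 to 224.6 CPM without and 207 to 262 with one, and of the 6 hepatocyte markers 1 was higher and 1 lower. Of all genes tested, 5.87% were higher and 7.99% lower at that threshold between the sets. None of the markers in the remaining lists passed it there. None of these markers passed the adjustment for the diet or for the set, and their part in the levels of the 4 genes lower with a recorded weight was not tested.

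Over the 12 mice, the genes closest to Fads1 on log2 CPM were Fads2 (Pearson's r = 0.953), Elovl5 (0.948) and Morc4 (0.947). Those closest to Fads2 were Fads1 (0.953), Stap1 (0.952) and Fabp2 (0.951), and those closest to Elovl5 were Fads1 (0.948), Lipa (0.947), the lysosomal acid lipase, and the steroid hydroxylase Cyp17a1 (0.945). Fads1 was thus the nearest gene of 12453 to both Fads2 and Elovl5, and with each mouse's value taken as its deviation from the mean of its diet group Fads1 had an r of 0.935 with Elovl5 and of 0.931 with Fads2, for which Fabp2 (0.964) and Stap1 (0.938) were then closer. Elovl2 was closest to H2-Q1 (0.965), whose counts are uncertain because genes of its family share reads, Serpina7 (0.954) and Dntt (0.938). Scd2 was closest to Sept11 (0.986), Aldh1b1 (0.974) and Trem2 (0.970), the last of which is one of the macrophage markers above. Elovl3 was closest to the manganese transporter Slc30a10 (0.952), Wdr59 (0.938) and Pnkd (0.934), Elovl1 to Ttyh2 (0.907), Samd14 (0.901) and Tubb2a (0.886), and Fads3 to Arhgap44 (0.920), Setd7 (0.896) and Itm2a (0.892). These correlations describe 12 mice that share the 2 diets and the 2 sets, and the nearest genes were picked from all genes tested.

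The other genes of fatty acid desaturation and elongation were followed through lists of the pathway. At an unadjusted p under 0.05, which the counts in these lists use, 9.55% of all genes tested were higher and 6.29% lower in VDD-F1 mice, and 5.87% were higher and 7.99% lower with a recorded weight. Of 8 further desaturases and elongases 4 could be tested, and between the diets Degs1, the dihydroceramide desaturase, was higher in VDD-F1 mice at an unadjusted p under 0.05 (log2 fold change 0.38 ± 0.11 SE, adjusted p = 0.125 in edgeR's test), with Scd1 next (0.64 ± 0.32 SE, adjusted p = 0.346). Between the sets, Elovl6, the elongase of palmitate, had a log2 fold change of -1.20 ± 0.27 (SE, adjusted p = 0.0327 in edgeR's test), and Scd1 of -0.72 ± 0.26 (SE, adjusted p = 0.204). Both fold changes had the sign of those of Fads1, Fads2, Elovl2 and Elovl5. The partners of the elongation cycle, which reduce and dehydrate the lengthened chain, were counted too: none of the 6 tested had an unadjusted p under 0.05 between the diets, and the smallest were those of Hacd3 (log2 fold change 0.08) and Hacd4 (0.37). Between the sets Hacd1 was higher with a recorded weight (log2 fold change 0.68 ± 0.20 SE, adjusted p = 0.119 in edgeR's test).

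Of 5 electron donors of the desaturases tested, the cytochrome Cyb5a was lower in VDD-F1 mice (log2 fold change -0.30 ± 0.11 SE, adjusted p = 0.223 in edgeR's test) and the reductase Cyb5r1 was higher (0.64 ± 0.28 SE, adjusted p = 0.286), each at an unadjusted p under 0.05, against 6.29% and 9.55% of all genes tested. Of 4 long-chain acyl-CoA synthetases, which activate fatty acids, Acsl4, the form that prefers arachidonic acid, was higher in VDD-F1 mice at an unadjusted p under 0.05, with 136 against 92.9 CPM (log2 fold change 0.55 ± 0.12 SE, adjusted p = 0.0855 in edgeR's test), and Acsl1 was lower at that threshold (-0.43 ± 0.19 SE, adjusted p = 0.284). Of 9 genes of peroxisomal chain shortening, which completes docosahexaenoic acid, Abcd2 was higher in VDD-F1 mice at 29.8 against 12.2 CPM (log2 fold change 1.29 ± 0.28 SE, adjusted p = 0.0840 in edgeR's test), and so was Ehhadh (0.34 ± 0.14 SE, adjusted p = 0.258), both at an unadjusted p under 0.05, against 9.55% of all genes tested. None of the 6 lysophospholipid acyltransferases tested, which place polyunsaturated chains into phospholipids, had an unadjusted p under 0.05 between the diets. Between the sets Lpcat3 and Agpat3 were lower with a recorded weight at an unadjusted p under 0.05, with log2 fold changes of -0.37 and -0.31 and adjusted p-values of 0.104 and 0.193 in edgeR's test. At the same threshold Cyb5r3 and Acsl5 were lower with a recorded weight (log2 fold changes -0.38 and -0.35), and Acsl1, Ehhadh and Acaa1b were higher (0.43, 0.39 and 0.56), with adjusted p-values from 0.0719 to 0.238 in edgeR's test.

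Of 11 transcriptional regulators of these genes, Mlxipl, the carbohydrate response factor ChREBP, was lower in VDD-F1 mice (log2 fold change -0.57 ± 0.18 SE, adjusted p = 0.145 in edgeR's test) and Pparg was higher (0.59 ± 0.22 SE, adjusted p = 0.220), each at an unadjusted p under 0.05, which is 1 of 11 in each direction, against 6.29% lower and 9.55% higher of all genes tested. Srebf1, the sterol regulatory factor that activates Fads1, Fads2, Elovl5 and Elovl6, had log2 fold changes of -0.21 ± 0.27 between the diets (SE, adjusted p = 0.749 in edgeR's test) and -0.27 ± 0.27 between the sets (SE, adjusted p = 0.744). Insig2, which retains that factor in the endoplasmic reticulum, was lower with a recorded weight (log2 fold change -0.78 ± 0.16 SE, adjusted p = 0.0266 in edgeR's test). Scap, which escorts the factor out of it, had a log2 fold change of -0.29 ± 0.13 (SE, unadjusted p = 0.0460, adjusted p = 0.346 in the same test), and the other 9 regulators had an unadjusted p of 0.05 or more between the sets.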

How the data were processed

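Liver RNA of 12 male mice was sequenced after removal of ribosomal RNA (KAPA RNA HyperPrep with RiboErase). After trimming, the authors aligned the reads with STAR to mm10 (GENCODE M15). The deposited values are raw counts of fragments on each gene, not normalized, for either strand and for both together. Here the reverse-strand counts were used, which held 92.7% to 95.8% of the stranded counts. Rows that name no gene held 37.4% to 50.3% of the fragments and were left out. Symbols and positions came from GENCODE M21, which matched 52489 of 52636 genes.

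A mean count of 12 or more was required, and genes were tested with edgeR 4.0.16 in R 4.3.3 (TMM, legacy quasi-likelihood fit, Benjamini-Hochberg adjustment over 12453 genes), where the study's methods name DESeq2. The models held diet, diet and set, or their interaction. Correlations used log2 CPM with a prior count of 2. At the filter's minimum a fold change rests on few counts, as for Fads3. The alternatives were DESeq2 1.42.0, voom (limma 3.58.1) with quality weights, a robust fit, other size factors, filters and strand, the sets alone or as a covariate, each mouse left out and a replicate block. A newer edgeR form, VDD2 and VDS6 left out together and each diet alone were added after the data had been seen. The edgeR fits were tested on simulated data. The genes named are the 9 genes, the 3 genes most alike to each, and of each list the genes past the threshold, or else the 2 with the smallest p-values, with a few more named after their values were seen (Srebf1, Nr1d1, Gpnmb, Adipoq, Scd1 between the sets). One gene of a list past the threshold between the sets is not reported here. The 9 genes and all lists were chosen with earlier results of these data known. Figures were drawn with Python 3.11.15 and matplotlib 3.10.9.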

Additional observations from a re-analysis of the deposited data

Results flagged for a closer look

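In each diet group of 6 mice, the highest and lowest mouse of each of the 9 genes were set against the other 5 by Dixon's criterion, which chance meets in about 1 in 20 groups. It was met in 2 of 18 groups, both times by VDD2. Elovl3 was at 13.8 CPM in VDD2 and at 241 to 335 CPM in the other 5 VDD-F1 mice. Elovl7 was at 3.03 CPM in VDD2 and at 0.126 to 0.841 CPM in the others, where it was counted with 2 to 16 fragments.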

How the results depend on the processing

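Between the diets none of the 9 genes was a DEG in the 12 mice. With DESeq2, with voom, without a filter on low counts and in the 7 mice with a recorded weight 1 was, Scd2 each time, and with each mouse left out 0 to 1 (Scd2 without VDD1 or VDD3). Over all genes the DEGs numbered 5, against 253 with DESeq2, 252 with voom, 536 in the mice with and 0 in the mice without a recorded weight, 260 without VDD1, 93 without VDD3, and 0 without VDD4, VDD5, VDD6, VDS3, VDS4 or VDS5. The 4 genes at an unadjusted p under 0.05 became 2 in the mice without a recorded weight. With the replicate block none was a DEG and 5 were higher at an unadjusted p under 0.05, against 8.26% of all genes. The replicate numbers did not pair the mice, since the correlation of same-numbered mice was -0.0762 to 0.103 and 0 of 6 VDD-F1 mice correlated best with their own number.

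Between the sets, 4 genes passed in the 12 mice, 1 in the VDD-F1 mice alone (0.145% of all genes), 1 in the VDS-F1 mice alone (0.859%), and 2 to 4 with each mouse left out. For the difference of the diet effect the count of 0 became 1 (Scd2) with voom, without a filter, without VDD2, and without VDD2 and VDS6. Over all genes that count was 62, 368, 334 and 484 in these fits, against 11 in the 12 mice. Among the 8 genes it stayed 0 with any other VDD-F1 mouse or any of VDS3 to VDS6 left out.

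Between the diets, Fads3 turned to -0.13 in the mice without a recorded weight and Elovl3 to 0.039 without VDD2 and VDS6. Between the sets, Fads3 turned to -0.86 without strand, -0.091 without VDD1 (up to 0.31 with another mouse left out) and -0.32 in VDS-F1 mice, Elovl3 to -0.054 without VDD2 (up to 0.36 with another mouse left out), -0.21 without VDD2 and VDS6 and -0.19 in VDS-F1 mice, and Scd2 to -0.53 in VDS-F1 mice. None of these had an adjusted p under 0.05. Apart from lower test power with fewer mice, the causes were not tested. Depth limits Fads3 and Elovl7 most.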

Other observations

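The ratios of the 2 desaturases and of the 2 elongases of polyunsaturated fatty acids, taken per kilobase of exon, also varied between mice. Fads2 relative to Fads1 was at 2.15 in VDD2, 1.63 in VDD3 and 1.49 in VDD1, and at 1.22 to 1.41 in the other 9 mice. Elovl5 relative to Elovl2 was at 1.56 in VDD1, 1.11 in VDD2 and 1.66 in VDD3, and at 0.962 to 1.06 in VDD4 to VDD6. In the VDS-F1 mice that ratio was at 1.30 and 1.45 in VDS1 and VDS2 and at 0.731 to 1.39 in VDS3 to VDS6, with VDS6 at the upper end.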
